A study of Rattus norvegicus with 13 samples.

Results

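The blood vessel lining of the kidney filter and its main growth factor were followed here through 10 genes, namely Kdr, Egfl7, Rasip1, Emcn, Pecam1, Plvap, Vwf, Icam2, Cldn5 and Vegfa. The genes were chosen with earlier results of these data known. A probe set, the group of short oligonucleotides that reads 1 transcript on the array, was included when its only platform gene symbol was 1 of these names, with no regard to its signal. This gave 13 probe sets for the 10 genes, out of 15923 probe sets and 10411 genes with a symbol on the array, and all 13 passed the filter on low values. Egfl7, Icam2 and Vegfa have 2 probe sets each, which read the same gene and are reported separately.

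The samples were glomeruli, the capillary tufts that filter the blood, from untreated rats of 18 weeks on a regular diet, given as Lewis-Hsd in the design, and RNA was read on Affymetrix Rat 230A arrays. Glomeruli were cut from frozen sections of 10 µm by laser capture microdissection (LCM) in the groups titled LCM 20 (n = 4) and LCM 800 (n = 5), and that RNA went through 2 rounds of amplification. The group titled iron (n = 4) held unamplified RNA of glomeruli that had trapped perfused iron oxide and were collected by sieving and magnet. The labels name about 800 glomerular cross-sections for both LCM groups and do not say what the number 20 stands for. The design describes paired kidneys, with LCM on 1 kidney and iron oxide perfusion of the other, so LCM and iron samples may come from the same rats. Perfusion, the way of isolation and amplification thus all change together between the LCM groups and iron and cannot be told apart. The labels call every sample a biological replicate but do not say which rat it came from. The extraction text of iron also mentions anti-Thy1.1 rats although all samples are given as untreated, and the description field of every sample is about embryos, at odds with all other labels.

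Glomerular endothelial cells are flat, perforated by open pores, and lie against the basement membrane opposite the podocytes. Podocytes secrete VEGF-A, encoded by Vegfa, which reaches the endothelial receptor VEGFR2, encoded by Kdr. This signal is known to keep the endothelium alive and its pores open. In the mature glomerulus the pores are known to largely lack the diaphragm protein encoded by Plvap. The glomerular capillary is also known to hold little von Willebrand factor, encoded by Vwf, a clotting protein typical of larger vessels.

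RefSeq entries of the build GRCr8 gave the bases before the transcription start of 6 of the 10 genes (Kdr, Vegfa, Egfl7, Emcn, Cldn5 and Plvap). The 250 bases before the start are shown for the receptor Kdr, its ligand Vegfa, and Emcn and Egfl7, since Vegfa fell in LCM 20 while the other 3 rose. Capitals mark matches to 3 short motifs searched on both strands: AGGAAG (or CTTCCT on the other strand), a core bound by ETS factors, which drive many endothelial genes, GGGCGG (or CCGCCC), the GC box, and ACGTG (or CACGT), the core of the hypoxia response element. Vegfa and Egfl7 have 2 listed starts each, and the first is shown. Kdr (chr14:32571813-32572062, plus strand), Vegfa (chr9:22452604-22452853, plus strand), Egfl7 (chr3:29805381-29805630, plus strand) and Emcn (chr2:228564289-228564538, plus strand) read, 5′ to 3′ along the gene:
Kdr: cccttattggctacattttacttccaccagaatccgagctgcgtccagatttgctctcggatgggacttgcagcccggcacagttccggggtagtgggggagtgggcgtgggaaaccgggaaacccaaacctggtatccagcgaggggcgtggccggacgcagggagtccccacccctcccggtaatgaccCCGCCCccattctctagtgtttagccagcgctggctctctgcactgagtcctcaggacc
Vegfa: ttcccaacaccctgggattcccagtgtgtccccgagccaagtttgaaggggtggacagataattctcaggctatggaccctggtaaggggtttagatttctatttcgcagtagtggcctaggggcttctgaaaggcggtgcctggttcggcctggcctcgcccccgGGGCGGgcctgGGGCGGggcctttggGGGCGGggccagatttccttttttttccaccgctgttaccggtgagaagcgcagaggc
Egfl7: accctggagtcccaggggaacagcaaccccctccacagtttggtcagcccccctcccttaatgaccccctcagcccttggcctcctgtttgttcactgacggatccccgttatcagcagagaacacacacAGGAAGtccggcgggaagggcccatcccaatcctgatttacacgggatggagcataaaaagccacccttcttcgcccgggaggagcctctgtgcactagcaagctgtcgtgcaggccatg
Emcn: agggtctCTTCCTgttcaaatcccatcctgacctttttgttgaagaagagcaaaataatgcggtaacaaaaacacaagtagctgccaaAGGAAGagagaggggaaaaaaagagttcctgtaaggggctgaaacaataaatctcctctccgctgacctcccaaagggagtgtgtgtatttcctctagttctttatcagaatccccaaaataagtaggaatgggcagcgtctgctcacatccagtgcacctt
The ETS core stood in 3 of the 6 genes (Egfl7, Emcn and Plvap), against 29.5% of the 33465 rat promoter windows of this length. The GC box stood in 5 of the 6 (all but Emcn), against 30.5% of the windows. A gene was counted when any of its windows held the motif, and Egfl7 and Vegfa had 2 windows each. The counts per gene thus run above a share per window. In Egfl7 the GC box stood only before the other start, with 4 matches, some of which overlap. The hypoxia core stood in none of the 6, against 16.6% of the windows, which says only that these letters are not in these windows. Kdr and Vegfa thus carried the GC box in the windows shown, and Egfl7 and Emcn the ETS core.

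Signals are linear array intensities. Each array had been scaled to a trimmed mean of about 500.1, and the median signal of an array lay between 236 and 321. Changes are differences of mean log2(signal + 65.29), which understate the change of dim probe sets, and are given ± standard error with p-values from limma adjusted over the 11106 probe sets tested. Nothing shows which arrays share an animal or a preparation, so the fit is unpaired and the p-values measure only the spread between these samples, and the small number of arrays limits the precision. Several arrays stood apart. Iron replicate 3 correlated with the other iron arrays at r = 0.873 to 0.897, against 0.964 to 0.984 among the other 3. LCM 800 replicates 1 to 3 correlated with replicates 4 and 5 at 0.718 to 0.812, against 0.893 to 0.937 within each of these sets. Values without them are given, here or in the closing sections, where they change the call or sign of a named result against iron. The β-actin probe sets read 1.5 to 2.51 log2 units more at the 3′ than at the 5′ end in LCM 20, 2.05 to 4.67 in LCM 800 and 0.53 to 0.58 in iron. For the GAPDH probe sets this was −0.28 to 3.26 in LCM 20, 0.83 to 2.24 in LCM 800 and 0.36 to 0.67 in iron, so that the LCM 20 and iron ranges overlapped.

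Markers of the neighbouring cell types were measured beside the members. The summed signal of 12 measured of 14 listed endothelial markers, 9 of them members, was 25599 to 33474 in LCM 20, 18428 to 26268 in LCM 800 and 7775 to 23846 in iron, where replicate 3 was the highest and the other 3 did not exceed 10860.5. Cdh5 and Tek of this list were not analysed here. Proximal tubule markers (14 of 15 measured) summed to 23081 to 54497 in LCM 20, 27825 to 56425 in LCM 800 and 77175 to 144079 in iron, with replicate 3 the lowest iron array, and 13 of the 14 fell in each LCM group against iron. Loop, distal tubule and collecting duct markers (8 of 10 measured) summed to 4559.8 to 11619.8 in LCM 20, 12886 to 20326 in LCM 800 and 17482 to 38015 in iron. Podocyte markers (8 of 12 measured) spanned 27259 to 43048, 31868 to 43163 and 19469 to 45294 in the same order, so their ranges overlapped, with iron replicate 3 the highest of all. Mesangial markers (8 of 8 measured) summed to 2266 to 3271 in LCM 20, 3052 to 5574 in LCM 800 and 5266 to 6884 in iron, although gene by gene 2 rose and 1 fell in LCM 20 and 4 rose and 1 fell in LCM 800. Leukocyte markers (9 of 10 measured) were higher in every LCM array, at 6056 to 9351 in LCM 20 and 5788 to 7717 in LCM 800 against 3741 to 4434 in iron. Platelet and erythrocyte markers (6 of 9 measured) overlapped at 1468 to 4907, 1739 to 3812 and 1336 to 3052, in LCM 20, LCM 800 and iron. The counts of markers that rose or fell stand beside 27% of all genes higher and 18.5% lower in LCM 20. In LCM 800 these shares were 32.3% and 19.8%. The part of these other cells in the changes below was not tested.

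**Figure D1:**
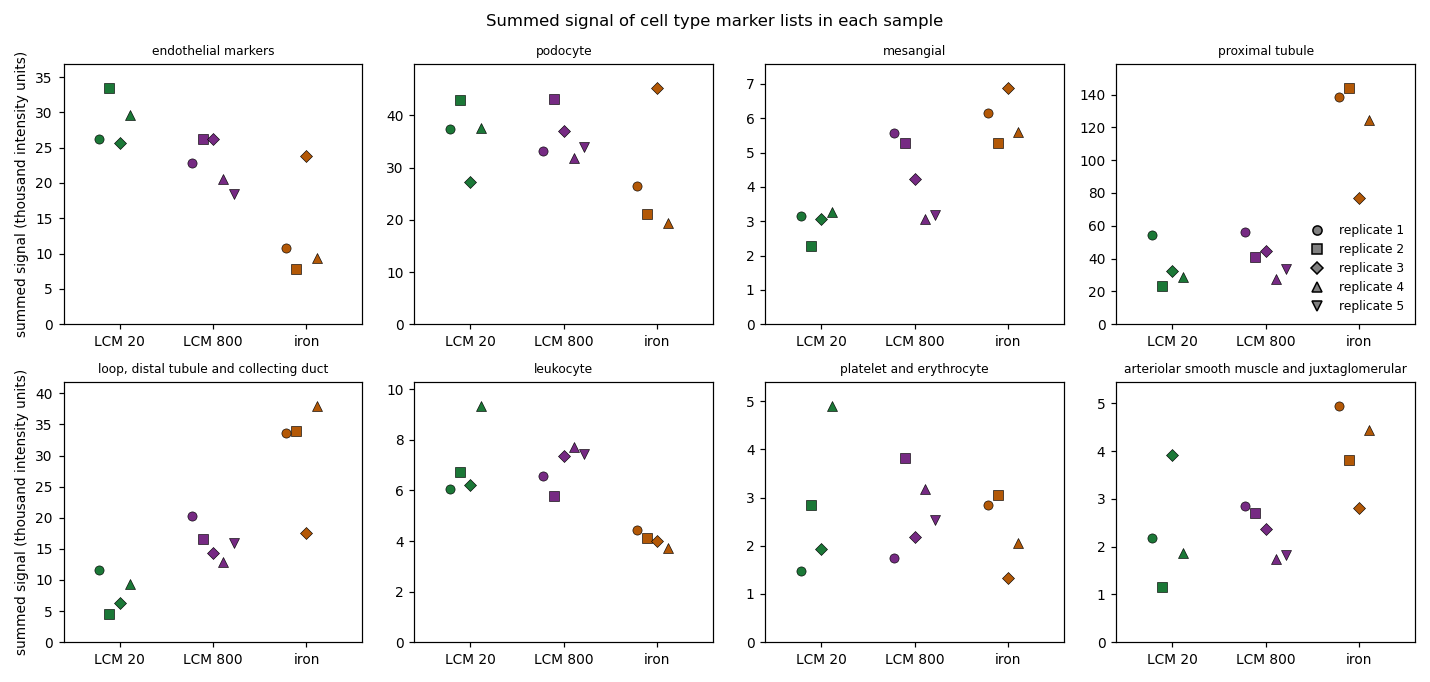
Summed signal intensity of 8 cell type marker lists in each sample, with LCM 20 left, LCM 800 in the middle and iron on the right and 1 symbol per replicate number. The endothelial sum is lowest in 3 iron arrays and reaches 23846 in iron replicate 3, which is also the lowest iron array for proximal tubule markers.

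Against iron, 10 of the 13 member probe sets changed in LCM 20, 6 higher and 4 lower, and 7 changed in LCM 800, 4 higher and 3 lower. Over all tested probe sets, 45.3% changed in LCM 20 (26.2% higher and 19.2% lower) and 51.9% changed in LCM 800 (31.8% higher and 20.1% lower). The members' share was thus above that of the array in LCM 20 (76.9%) and about the same in LCM 800 (53.8%). Since the genes were chosen with earlier results of these data known, this is a description and no test of the group. The median change of the 13 was 0.88 in LCM 20 and 0.44 in LCM 800, beside 0.17 and 0.22 over all probe sets tested. A typical probe set was itself slightly above iron and a member's change is to be read against that shift. The sample ranges did not overlap for 6 of the 13 in LCM 20 and 4 in LCM 800, beside 43.8% and 42.8% of all probe sets. Both comparisons use the same iron samples and so are not independent. In bulk samples like these, fewer cells of a type and less RNA per cell cannot be told apart.

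**Figure D2:**
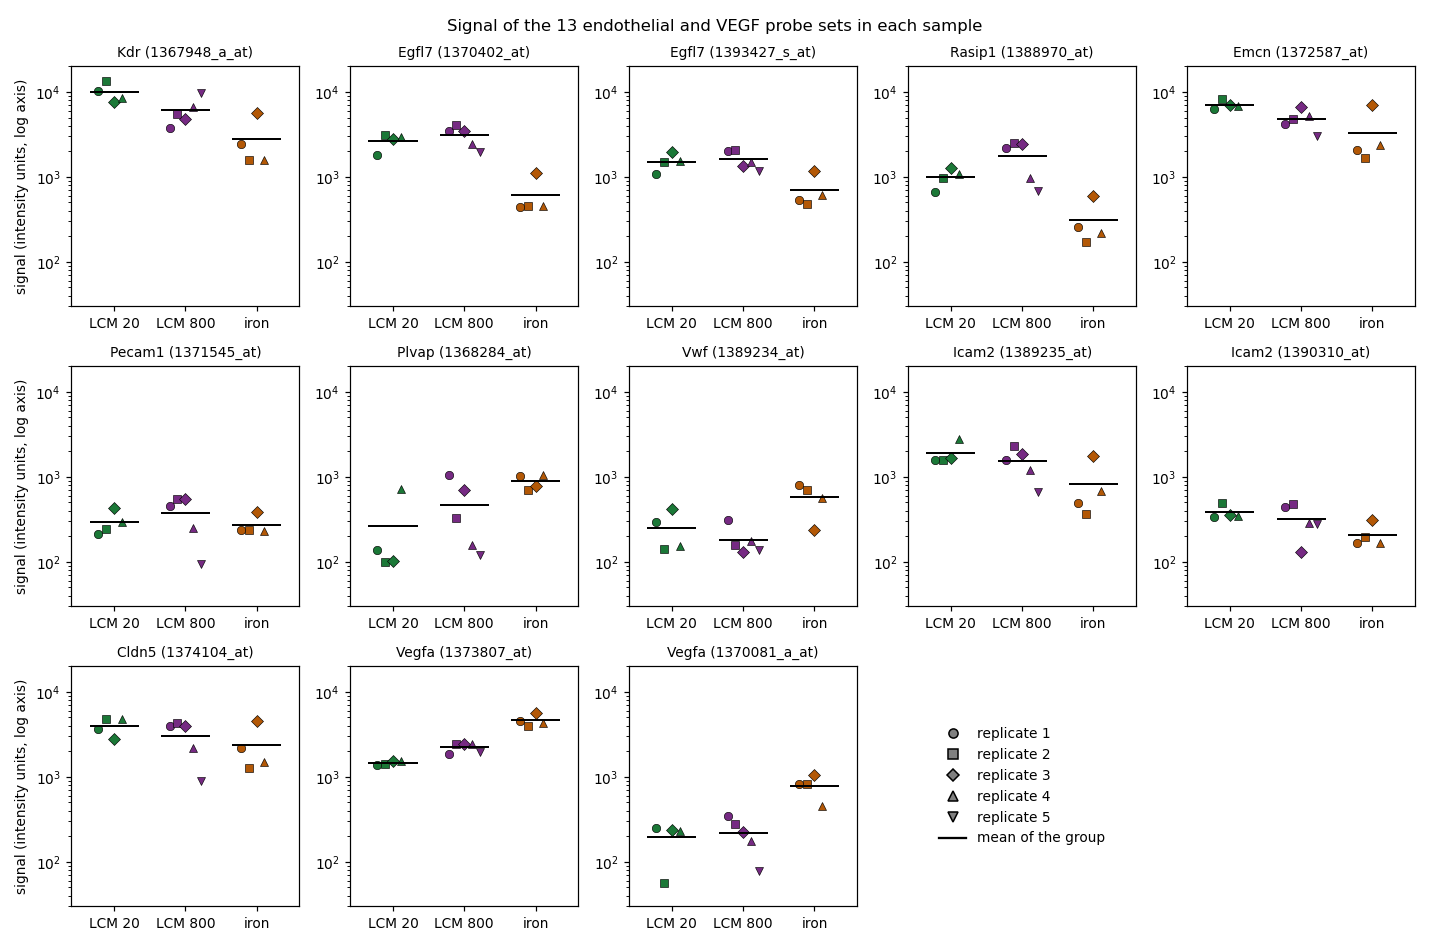
Signal of each of the 13 probe sets in each of the 13 samples, on a log axis in intensity units, with LCM 20 left, LCM 800 in the middle and iron on the right. Symbols mark replicate numbers and the line is the mean of the group. Kdr, Egfl7 and Rasip1 lie higher in the LCM groups and both Vegfa probe sets lie lower.

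Kdr, the main signalling receptor for VEGF-A on endothelial cells, had signals of 10385, 13479, 7622 and 8436 in LCM 20, of 3809.7, 5496, 4864, 6697 and 9762 in LCM 800, and of 2457, 1571, 5619 and 1590.2 in iron. Every LCM 20 array was above every iron array, and LCM 800 replicates 1 to 3 overlapped with iron only through iron replicate 3. Kdr (1367948_a_at) was higher than in iron by 1.97 ± 0.38 in LCM 20 (adjusted p = 0.000636) and by 1.24 ± 0.36 in LCM 800 (adjusted p = 0.00924). Without iron replicate 3 the Kdr changes were 2.37 and 1.63, and the LCM 800 change was 1.71 with LCM 800 replicates 1, 2 and 3 left out and 0.92 with replicates 4 and 5 left out, passing in each. The order of the 3 groups was thus LCM 20, LCM 800, iron, of which the first and second did not differ past the threshold, with a difference of 0.74 ± 0.36 (adjusted p = 0.298) and a 95% interval of −0.02 to 1.5.

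Vegfa, the ligand, went the other way. Probe set 1373807_at had signals of 1387, 1399, 1538 and 1524 in LCM 20, of 1869.8, 2439, 2441, 2460.2 and 1937 in LCM 800, and of 4519, 3966, 5687 and 4284 in iron. No 2 of the 3 groups overlapped, and this probe set had the smallest spread among the 13 in each group, with an SD of 0.08 in LCM 20, 0.19 in LCM 800 and 0.22 in iron on the log2 scale. Against iron it fell by 1.60 ± 0.20 in LCM 20 (adjusted p = 1.87e-05) and by 1.03 ± 0.19 in LCM 800 (adjusted p = 0.000413). Between LCM 20 and LCM 800 the difference was −0.58 ± 0.19, with an unadjusted p of 0.00792 that did not pass after adjustment (adjusted p = 0.158) and a 95% interval of −0.98 to −0.17.

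The dimmer Vegfa probe set, 1370081_a_at, had signals of 252, 56.7, 234 and 230.0 in LCM 20, of 347, 276, 223, 178 and 78.2 in LCM 800, and of 826, 822, 1035 and 458 in iron. All iron arrays were above all LCM arrays, and the 56.7 of LCM 20 replicate 2 lies below the value added before taking logs. Its change against iron was −1.76 ± 0.35 in LCM 20 (adjusted p = 0.000917) and −1.61 ± 0.34 in LCM 800 (adjusted p = 0.00102). Both probe sets thus put the ligand lower in both LCM groups, while the receptor was higher. Of the 8 podocyte markers tested, 2 rose and 2 fell in LCM 20 while 2 rose and 4 fell in LCM 800. Over all genes 27% rose and 18.5% fell in LCM 20, and 32.3% rose and 19.8% fell in LCM 800. The median change of the podocyte markers was −0.32 in LCM 20 and −0.62 in LCM 800. Nphs1, which encodes the podocyte slit protein nephrin, ran against that median, with averages of 5274 in LCM 20, 4725 in LCM 800 and 2301 in iron.

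Egfl7, a protein that endothelial cells secrete into the vessel wall, gave the largest rise of the members. Probe set 1370402_at had signals of 1793, 3107, 2789.8 and 2929 in LCM 20, of 3476, 4059, 3502, 2434 and 1987 in LCM 800, and of 448, 458, 1101 and 457 in iron, with no overlap between iron and either LCM group. It rose by 2.07 ± 0.31 in LCM 20 (adjusted p = 8.32e-05) and by 2.27 ± 0.29 in LCM 800 (adjusted p = 1.75e-05).

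The second Egfl7 probe set, 1393427_s_at, had signals of 1087, 1479.6, 1946 and 1530.2 in LCM 20, of 2030.0, 2055, 1353, 1496 and 1175 in LCM 800, and of 531, 486, 1186 and 611 in iron. Here iron replicate 3 lay inside the LCM ranges, and the rise of 1.09 ± 0.28 in LCM 20 (adjusted p = 0.00561) and 1.18 ± 0.27 in LCM 800 (adjusted p = 0.00184) was smaller than at the first probe set. An _s_at probe set can also read related transcripts, and which part of Egfl7 each reads was not analysed here. Neither Egfl7 probe set differed past the threshold between LCM 20 and LCM 800, with differences of −0.20 (95% interval −0.82 to 0.42) and −0.09 (−0.66 to 0.48).

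Rasip1, which acts on Ras family GTPases and is needed for vessels to form an open lumen, had signals of 665, 967, 1281 and 1070.4 in LCM 20, of 2172, 2539, 2465, 973 and 675 in LCM 800, and of 259, 169, 602 and 219 in iron. No LCM array was as low as any iron array, and within LCM 800 replicates 1 to 3 were far above replicates 4 and 5. Rasip1 rose by 1.58 ± 0.41 in LCM 20 (adjusted p = 0.00549) and by 2.23 ± 0.39 in LCM 800 (adjusted p = 0.000228). With LCM 800 replicates 1, 2 and 3 left out together its LCM 800 change was 1.34, and with replicates 4 and 5 left out it was 2.82.

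Emcn encodes endomucin, a sialomucin on the surface of capillary and venous endothelium. Its signals were 6274, 8168, 6990.4 and 6824 in LCM 20, 4249, 4793, 6589, 5173 and 3065 in LCM 800, and 2095, 1654, 7028 and 2385 in iron. The LCM 20 arrays were close together, and 3 iron arrays were below all LCM arrays while iron replicate 3 reached the LCM 20 level. Emcn rose by 1.32 ± 0.36 in LCM 20 (adjusted p = 0.00781), and its LCM 800 change of 0.73 ± 0.34 did not pass the test (adjusted p = 0.0862). The LCM 800 change passed without iron replicate 3, at 1.17 (adjusted p = 0.00152), and without LCM 800 replicate 5, at 0.88 (adjusted p = 0.0464).

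Among the junction and adhesion members, the response was mixed. Pecam1 encodes CD31, a homophilic adhesion protein at endothelial junctions that platelets and leukocytes also carry. Its signals were 214, 246, 435 and 296 in LCM 20, 448, 550.1, 548, 247 and 94.1 in LCM 800, and 238, 235, 387 and 232 in iron. The 3 groups overlapped, and its changes of 0.09 ± 0.36 in LCM 20 (adjusted p = 0.858, 95% interval −0.68 to 0.86) and 0.25 ± 0.34 in LCM 800 (adjusted p = 0.559, −0.48 to 0.98) did not pass the test. With LCM 800 replicates 4 and 5 left out, the Pecam1 change in LCM 800 was 0.80 and passed (adjusted p = 0.0108), and with replicates 1, 2 and 3 left out it was −0.58 (adjusted p = 0.149).

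Icam2, an adhesion ligand for leukocyte integrins that endothelium and platelets hold, was read by 2 probe sets. The brighter one, 1389235_at, had signals of 1561, 1579.6, 1677 and 2819 in LCM 20, of 1598, 2330.2, 1840.0, 1196 and 665 in LCM 800, and of 493, 368, 1770.5 and 676 in iron, where replicate 3 again lay within the LCM range. This Icam2 probe set rose by 1.34 ± 0.42 in LCM 20 (adjusted p = 0.0163), while its LCM 800 change of 0.96 ± 0.40 did not pass (adjusted p = 0.0520). Single arrays decided both results. The LCM 20 call was lost without iron replicate 1 (1.19, adjusted p = 0.0522), iron replicate 2 (1.07, adjusted p = 0.0629) or LCM 20 replicate 4 (1.14, adjusted p = 0.0511). The LCM 800 change passed without iron replicate 3 (1.39, adjusted p = 0.00418) or LCM 800 replicate 5 (1.22, adjusted p = 0.0131). It was 1.38 (adjusted p = 0.00801) with LCM 800 replicates 4 and 5 left out and 0.34 (adjusted p = 0.566) with replicates 1, 2 and 3 left out.

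The dimmer Icam2 probe set, 1390310_at, had signals of 334, 489, 354 and 345 in LCM 20, of 439.8, 477, 131, 283 and 276 in LCM 800, and of 167, 194, 311 and 165 in iron. Its LCM 20 arrays were all above the iron arrays, yet the change of 0.72 ± 0.28 narrowly missed the threshold (adjusted p = 0.0506), and that in LCM 800 was 0.44 ± 0.27 (adjusted p = 0.186). The LCM 20 change passed without iron replicate 3 (0.88, adjusted p = 0.0268), and, through the shared estimate of spread, without LCM 800 replicate 1, 2 or 3 (adjusted p = 0.0443, 0.0408 and 0.0208). It also passed with LCM 800 replicates 1, 2 and 3 left out together (adjusted p = 0.0104). The LCM 800 change passed without LCM 800 replicate 3 (0.66, adjusted p = 0.0280).

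Cldn5 encodes claudin-5, the tight junction protein of endothelium. It had signals of 3627, 4731, 2821 and 4758 in LCM 20, of 3942, 4301, 3995, 2175 and 885 in LCM 800, and of 2162, 1267, 4585 and 1511 in iron. The groups overlapped, since iron replicate 3 was among the high arrays and LCM 800 replicate 5 was the lowest of all 13. The Cldn5 changes of 0.88 ± 0.46 in LCM 20 (adjusted p = 0.130) and 0.34 ± 0.44 in LCM 800 (adjusted p = 0.531) did not pass. Without iron replicate 3 the LCM 20 change was 1.24 and passed (adjusted p = 0.0344), and with LCM 800 replicates 4 and 5 left out that of LCM 800 was 0.94 and passed (adjusted p = 0.0334). In that last fit the LCM 20 change of 0.88 also passed, through the shared spread (adjusted p = 0.0338). With LCM 800 replicates 1, 2 and 3 left out the Cldn5 change in LCM 800 was −0.57 (adjusted p = 0.325).

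Plvap and Vwf, the members that mature glomerular endothelium is known to hold least of, both fell in LCM 20, and Vwf also fell in LCM 800. Plvap, which forms the diaphragms of fenestrae and caveolae, had signals of 139, 100.2, 102 and 715 in LCM 20, of 1039.7, 330.1, 699, 159 and 120.1 in LCM 800, and of 1029, 704, 786 and 1057 in iron. The iron arrays were close together and the LCM arrays spread over a wide range that reached the iron level in LCM 20 replicate 4 and LCM 800 replicate 1, with LCM 800 replicate 3 just below it. Plvap fell by 1.88 ± 0.54 in LCM 20 (adjusted p = 0.0103), and its LCM 800 change of −1.16 ± 0.51 did not pass (adjusted p = 0.0691). That change passed without LCM 800 replicate 1 (−1.50, adjusted p = 0.0176), without LCM 800 replicate 3 (−1.37, adjusted p = 0.0443) and, through the shared spread, without LCM 20 replicate 4 (adjusted p = 0.0336). Its size depended on which LCM 800 arrays were kept, with −2.22 (adjusted p = 0.00294) when replicates 1, 2 and 3 were left out and −0.45 (adjusted p = 0.427) when replicates 4 and 5 were left out.

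Vwf had signals of 295, 143, 413 and 153 in LCM 20, of 309, 159.6, 131, 176 and 136 in LCM 800, and of 806, 698, 234 and 558 in iron. All LCM arrays were below 3 of the iron arrays, and iron replicate 3 lay among the LCM arrays. Vwf fell by 0.996 ± 0.34 in LCM 20 (adjusted p = 0.0268) and by 1.31 ± 0.33 in LCM 800 (adjusted p = 0.00356). The LCM 20 call was lost without iron replicate 1 (−0.81, adjusted p = 0.0921), iron replicate 2 (−0.87, adjusted p = 0.0801), iron replicate 4 (−0.97, adjusted p = 0.0592), LCM 20 replicate 2 (−0.82, adjusted p = 0.0848) or LCM 20 replicate 4 (−0.85, adjusted p = 0.0751). Markers of arteriolar smooth muscle and juxtaglomerular cells, which lie along the larger vessels, summed to 1147 to 3918 in LCM 20, 1734 to 2857 in LCM 800 and 2809.7 to 4951 in iron, and their part in the Vwf and Plvap values was not tested.

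**Figure D3:**
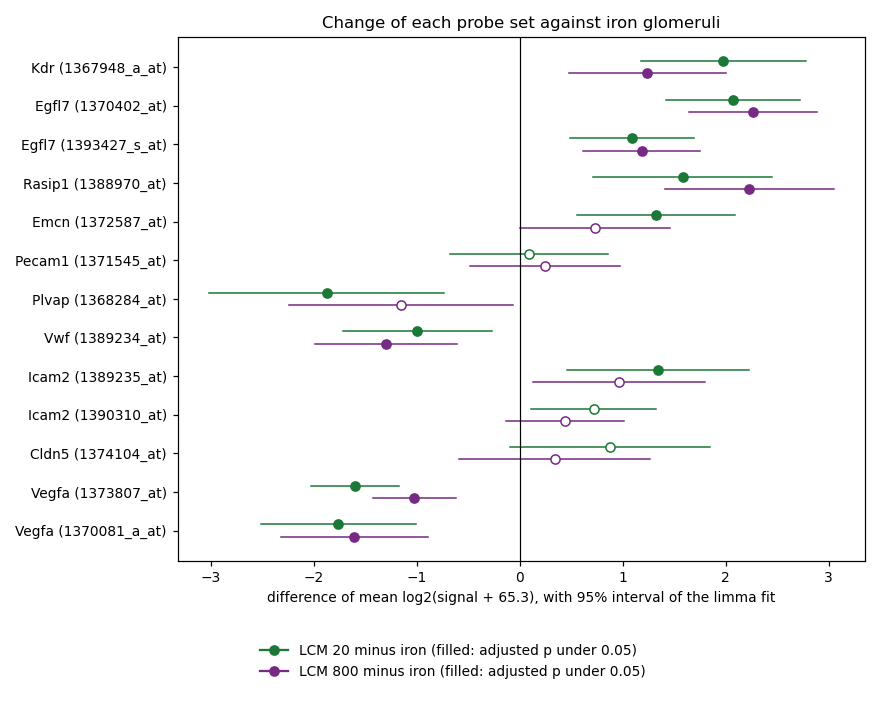
Change of each probe set against iron, as a difference of mean log2(signal + 65.3) with its 95% interval from limma, LCM 20 above LCM 800 for each probe set. Filled points have an adjusted p under 0.05. Kdr, Egfl7 and Rasip1 lie right of 0 and Vwf and Vegfa left of 0 in both comparisons, with the largest rise, 2.27, at Egfl7 1370402_at in LCM 800.

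Iron replicate 3 had the highest signal of the 4 iron arrays for 11 of the 13 member probe sets (84.6%), beside 36.3% of all probe sets tested. The exceptions were Plvap, where it was in the middle, and Vwf, where it was the lowest. It exceeded the mean of the other iron arrays by 1.77 log2 units for Emcn, 1.70 for Icam2 1389235_at, 1.58 for Kdr and 1.48 for Cldn5, and by 0.41 for Vegfa 1373807_at. The median SD of the members was 0.36 in LCM 20, 0.58 in LCM 800 and 0.58 in iron, beside 0.36, 0.39 and 0.24 over all probe sets. Without iron replicate 3, 12 of the 13 member probe sets passed in LCM 20 (8 higher and 4 lower), beside 43.7% of all probe sets in that fit. In LCM 800, 9 passed (6 higher and 3 lower), beside 49.3%.

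**Figure D4:**
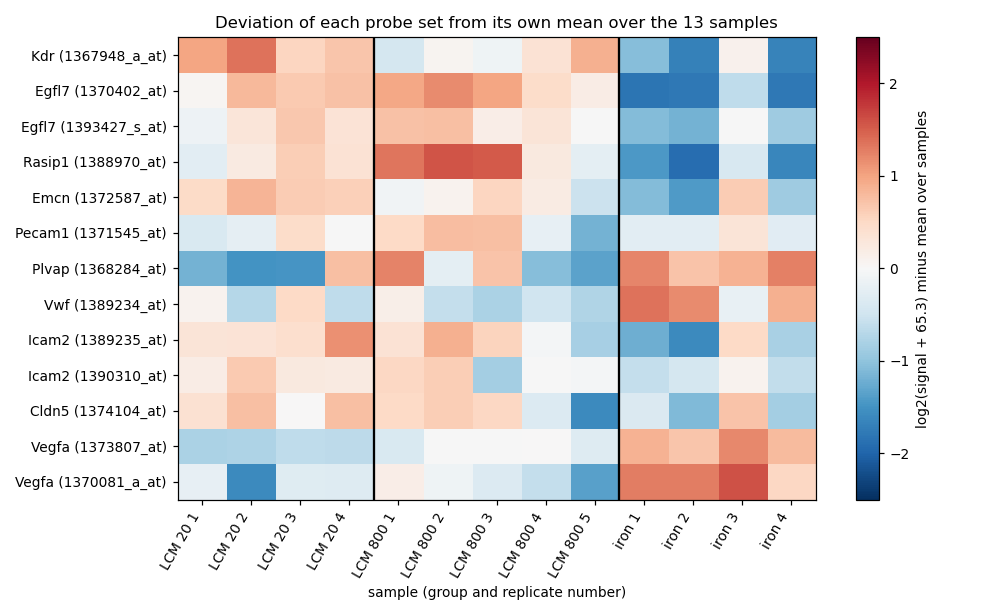
Deviation of each probe set from its own mean over the 13 samples, in units of log2(signal + 65.3), with LCM 20 left, LCM 800 in the middle and iron on the right. Iron 3 is paler or of the opposite colour to the other iron arrays in most rows, and the Plvap, Vwf and Vegfa rows run against most of the other rows.

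Between the LCM groups, none of the 13 member probe sets differed past the threshold in limma, and 1, Vegfa 1373807_at, had an unadjusted p under 0.05. The same test passed for 0.153% of all probe sets, with 1952 of the 11106 at an unadjusted p under 0.05. The ranges were apart only for Vegfa 1373807_at, 1 of 13, beside 3.84% of all probe sets. With LCM 800 replicates 4 and 5 left out, 4 of the 13 passed, beside 23.4% of all probe sets in that fit, and all were lower in LCM 20: Rasip1 at −1.24, Plvap at −1.43, Pecam1 at −0.71 and Vegfa 1373807_at at −0.59. With LCM 800 replicates 1, 2 and 3 left out instead, none of these 4 passed. Rasip1 at 0.24, Plvap at 0.34 and Pecam1 at 0.67 then had the opposite sign, and Vegfa 1373807_at was −0.56.

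The rest of the pathway was described with 100 other genes of endothelium and VEGF signalling, of which 80 were on the array and 69 were tested, each through its brightest probe set. Of these, 29 changed in LCM 20 (27 higher and 2 lower) and 29 in LCM 800 (26 higher and 3 lower), which is 42% in each case. Over all tested genes the share was 45.5% in LCM 20 (27% higher and 18.5% lower) and 52.1% in LCM 800 (32.3% higher and 19.8% lower), so the wider list did not change more often than the array as a whole. Its median change was 0.44 in LCM 20 and 0.45 in LCM 800, beside 0.18 and 0.22 over all genes. The LCM 800 count was 19 without iron replicate 2 (27.5%), beside 44.4% of all probe sets in that fit. No gene of the wider list passed between LCM 20 and LCM 800 in limma, while 9 had an unadjusted p under 0.05, and 0.136% of all genes passed.

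Among the ligands and receptors, Flt1, the VEGF receptor that mostly traps the ligand, changed in the same direction as Kdr. Its probe set 1377113_at had signals of 437, 333, 592 and 422 in LCM 20, of 385, 313, 445, 444 and 438 in LCM 800, and of 93.6, 51.5, 238 and 76.4 in iron. These Flt1 ranges did not overlap with iron, and the rise was 1.58 ± 0.26 in LCM 20 (adjusted p = 0.000206) and 1.47 ± 0.25 in LCM 800 (adjusted p = 0.000189). A second tested Flt1 probe set, 1369087_at, gave −0.39 and −0.33 and did not pass, so the Flt1 probe sets disagreed. The co-receptor Nrp1 (1370570_at) did not pass, at −0.89 ± 0.38 in LCM 20 (adjusted p = 0.0668) and −0.67 ± 0.36 in LCM 800 (adjusted p = 0.132). The LCM 20 change of Nrp1 passed without LCM 20 replicate 1 (−1.17, adjusted p = 0.0244), and the LCM 800 change passed with LCM 800 replicates 1, 2 and 3 left out (−1.19, adjusted p = 0.0398). With LCM 800 replicates 4 and 5 left out, the LCM 20 change of Nrp1 also passed, through the shared spread (adjusted p = 0.043). These refits are of 1370570_at. The other tested Nrp1 probe set, 1373577_at, gave −0.19 in LCM 20 (adjusted p = 0.707) and −0.21 in LCM 800 (adjusted p = 0.635) and did not pass. Flt4 and Nrp2 were too dim to be tested.

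Of the other ligands, Vegfb, which binds Flt1, averaged 280.2 in LCM 20, 310.3 in LCM 800 and 386 in iron and did not pass. Vegfc, known for lymphatic growth, averaged 338 in LCM 20, 402 in LCM 800 and 236 in iron. It passed only in LCM 800, where it rose by 0.64 ± 0.21 (adjusted p = 0.0187), and this call was lost without iron replicate 1 (adjusted p = 0.0526) or 2 (adjusted p = 0.0665), with LCM 800 replicates 1, 2 and 3 left out (0.0635), with quantile normalization (0.0509) and with equal array medians (0.0536). In LCM 20 the Vegfc change was 0.38 ± 0.22 (adjusted p = 0.171), and it passed without LCM 20 replicate 3 (0.56, adjusted p = 0.0424). None of the other 4 ligands tested fell.

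In the signal transduction list, 20 genes were tested, and 7 rose in LCM 20 and 8 in LCM 800 with none lower. These counts stand beside 27% of all genes higher in LCM 20 and 32.3% in LCM 800, so the rises were near the share of the array. Shb, an adaptor that binds activated VEGFR2, had signals of 2229.7, 1509, 1792 and 1831 in LCM 20, of 1352, 1534, 1523, 1123 and 1373 in LCM 800, and of 427, 428, 605 and 491 in iron. Shb rose by 1.78 ± 0.20 in LCM 20 (adjusted p = 7.63e-06) and by 1.39 ± 0.19 in LCM 800 (adjusted p = 2.86e-05), with no overlap with iron. Plcg1, the phospholipase that VEGFR2 activates, rose in LCM 800 by 1.20 ± 0.34 (adjusted p = 0.00741). Its LCM 20 change was 0.36 ± 0.35 (adjusted p = 0.421). Its signals were 1305, 1399, 1803 and 1553 in LCM 20, 4272, 4161, 3869, 1259 and 1769 in LCM 800, and 950.4, 1015, 1051 and 1747 in iron. The LCM 800 change of Plcg1 was 0.35 (adjusted p = 0.307) with LCM 800 replicates 1, 2 and 3 left out. Rac1, a GTPase of cell motility, rose at 1388332_at by 1.27 ± 0.30 in LCM 20 (adjusted p = 0.00332) and 0.86 ± 0.29 in LCM 800 (adjusted p = 0.0199, lost without iron replicate 1, 2 or 4, at 0.0697, 0.0570 and 0.0529, and with LCM 800 replicates 4 and 5 left out, at 0.0960). The other tested Rac1 probe set, 1372513_at, fell by 0.71 ± 0.26 in LCM 800 (adjusted p = 0.0346). The probe set of Nos3, the endothelial nitric oxide synthase, averaged 23.5 in LCM 20, 43.5 in LCM 800 and 62.5 in iron, below the filter, and was not tested.

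In the angiopoietin and Tie group, Ptprb, the phosphatase that restrains Tie2, rose by 1.72 ± 0.46 in LCM 20 (adjusted p = 0.00670) and by 1.37 ± 0.44 in LCM 800 (adjusted p = 0.0156). The LCM 800 call of Ptprb was lost without iron replicate 2 (1.09, adjusted p = 0.0639) and with LCM 800 replicates 4 and 5 left out (0.83, adjusted p = 0.102). Tie1, an orphan receptor partner of Tie2, averaged 670.4 in LCM 20, 989 in LCM 800 and 587 in iron. It passed in LCM 800 (0.69 ± 0.26, adjusted p = 0.0382), and its LCM 20 change was 0.19 ± 0.28 (adjusted p = 0.593). The LCM 800 call was lost when any of iron replicates 1, 2 and 4 (adjusted p = 0.0962, 0.0962 and 0.108) or LCM 800 replicates 1, 2 and 3 (adjusted p = 0.0784, 0.0875 and 0.0779) was left out, and the Tie1 change was 0.23 (adjusted p = 0.537) with all 3 of these LCM 800 arrays left out. Tek and Angpt1 were not analysed here.

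The largest rise in the wider list was that of Gja5, which encodes connexin 40, a gap junction protein of arteriolar and glomerular endothelium and of renin cells. Gja5 probe set 1368473_at had signals of 3943, 6322, 7926 and 5777 in LCM 20, of 3091, 3620.5, 3745, 7193 and 5546 in LCM 800, and of 505, 385, 2479 and 619.9 in iron. Every LCM array was above every iron array, and the rise was 2.85 ± 0.44 in LCM 20 (adjusted p = 0.000118) and 2.45 ± 0.42 in LCM 800 (adjusted p = 0.000197). The dim Gja5 probe set 1387207_at gave 0.07 and −0.06 and did not pass. Gja4, which encodes connexin 37, rose by 1.40 ± 0.33 in LCM 20 (adjusted p = 0.00323) and 1.54 ± 0.32 in LCM 800 (adjusted p = 0.000892). In the whole list of junction and adhesion genes, members included, 5 of 11 tested rose in LCM 20 and 3 in LCM 800, with none lower. Over all genes the share that rose was 27% in LCM 20 and 32.3% in LCM 800.

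Among surface, coagulation and vasoactive genes, 17 were tested with members included, of which 5 rose and 4 fell in LCM 20 and 3 rose and 3 fell in LCM 800. For all genes the shares were 27% and 18.5% in LCM 20 and 32.3% and 19.8% in LCM 800. Acvrl1, the endothelial ALK1 receptor for BMP9, rose by 1.79 ± 0.39 in LCM 20 (adjusted p = 0.00162) and 1.73 ± 0.37 in LCM 800 (adjusted p = 0.00119). The LCM 800 call of Acvrl1 was lost with LCM 800 replicates 1, 2 and 3 left out (1.04, adjusted p = 0.0531), and the change was 2.18 with replicates 4 and 5 left out. S1pr1, the sphingosine-1-phosphate receptor that tightens the barrier, had signals of 2465, 4264, 2558 and 2661 in LCM 20, of 624, 777, 1165, 3667 and 3927 in LCM 800, and of 401, 385, 1769.5 and 338 in iron. S1pr1 rose by 2.25 ± 0.57 in LCM 20 (adjusted p = 0.00463). Its LCM 800 rise of 1.35 ± 0.54 (adjusted p = 0.0442) no longer passed when any of 9 single arrays was left out (iron replicates 1, 2 and 4, LCM 800 replicates 3 to 5, LCM 20 replicates 1, 3 and 4, with adjusted p up to 0.127). It was 0.51 (adjusted p = 0.326) with LCM 800 replicates 4 and 5 left out. Plat, the tissue plasminogen activator, fell in both, with signals of 696, 894, 758 and 1915 in LCM 20, of 877, 796, 1077, 1125 and 720.4 in LCM 800, and of 3138, 2326, 5525 and 2347 in iron. Plat changed by −1.61 ± 0.32 in LCM 20 (adjusted p = 0.000922) and by −1.71 ± 0.31 in LCM 800 (adjusted p = 0.000301), with no overlap with iron.

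Tfpi, the inhibitor of the tissue factor pathway, was read differently by its probe sets. At 1389780_at Tfpi rose by 1.99 ± 0.52 in LCM 20 (adjusted p = 0.00632) and the LCM 800 change was 0.61 ± 0.50 (adjusted p = 0.312). At 1368323_at Tfpi changed by −1.22 ± 0.24 in LCM 20 and −1.29 ± 0.22 in LCM 800 (adjusted p = 0.000670 and 0.000226). The signals of Tfpi at 1389780_at in LCM 800 were 137, 215 and 382 in replicates 1 to 3 and 1392 and 1386 in replicates 4 and 5, so the group mean stands for no single array. The Tfpi change in LCM 800 was 2.00 (adjusted p = 0.000257) with replicates 1, 2 and 3 left out and −0.31 (adjusted p = 0.402) with replicates 4 and 5 left out.

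Of 15 tested endothelial transcription and GTPase genes, Rasip1 included, 10 rose in LCM 20, and 7 rose and 1 fell in LCM 800. Beside this, 27% of all genes rose in LCM 20, and 32.3% rose and 19.8% fell in LCM 800. Tal1, a factor of blood and endothelial development, rose by 1.76 ± 0.27 in LCM 20 (adjusted p = 0.000108) and 1.94 ± 0.26 in LCM 800 (adjusted p = 2.21e-05). Klf2, a gene induced by laminar flow, averaged 1741 in LCM 20, 2573 in LCM 800 and 1226 in iron, where replicate 3 had 3229 and the other arrays 435 to 688. The Klf2 change was 0.85 ± 0.53 in LCM 20 (adjusted p = 0.198), which passed without iron replicate 3 (1.45, adjusted p = 0.0111). Its LCM 800 rise of 1.36 ± 0.50 (adjusted p = 0.0320) was lost when any of 6 single arrays was left out, iron replicates 1, 2 and 4 and LCM 800 replicates 1 to 3 (adjusted p up to 0.114). With these 3 LCM 800 arrays left out together the Klf2 change was 0.63 (adjusted p = 0.416). A second tested Klf2 probe set, 1375248_at, gave −0.30 and −0.29 and did not pass.

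Vegfa transcription is known to be driven by hypoxia-inducible factors, which prolyl hydroxylases of the Egln family mark for destruction, so these regulators were read beside it. Of 6 tested, 3 rose in each LCM group and none fell, beside 27% of all genes higher in LCM 20 and 32.3% in LCM 800. Epas1, which encodes HIF-2α and is high in endothelium, rose by 1.66 ± 0.46 in LCM 20 (adjusted p = 0.00831), with an LCM 800 change of 0.44 ± 0.44 (adjusted p = 0.407). A second Epas1 probe set, 1369703_at, gave −0.72 in LCM 20 (adjusted p = 0.0748) and −0.65 in LCM 800 (adjusted p = 0.0795) and did not pass. Egln2 rose by 1.09 ± 0.32 in LCM 800 (adjusted p = 0.00998), where replicates 1 to 3 had signals of 3473, 3414 and 3173 and replicates 4 and 5 of 1249.9 and 1257. With replicates 1, 2 and 3 left out the Egln2 change was 0.27 (adjusted p = 0.402) and did not pass, and with replicates 4 and 5 left out it was 1.64. Its LCM 20 change of 0.84 ± 0.34 just missed (adjusted p = 0.0528), passing without LCM 800 replicate 1, 2, 4 or 5 (adjusted p = 0.0319 to 0.0480). It also passed with LCM 800 replicates 1, 2 and 3 left out (adjusted p = 0.00437) and with replicates 4 and 5 left out (adjusted p = 0.00301). Egln3, itself a hypoxia target, rose by 0.72 ± 0.25 in LCM 20 (adjusted p = 0.0281) and 0.63 ± 0.24 in LCM 800 (adjusted p = 0.0357). Both calls were lost without iron replicate 1, 2 or 4 (adjusted p = 0.0644 to 0.0876). The LCM 20 call was also lost without LCM 20 replicate 3 (0.0945) and the LCM 800 call without LCM 800 replicate 1 (0.0641) or 4 (0.0894) and with LCM 800 replicates 4 and 5 left out (0.120). Hif1a, which encodes HIF-1α, did not pass, at −0.90 ± 0.59 in LCM 20 (adjusted p = 0.224) and −0.79 ± 0.56 in LCM 800 (adjusted p = 0.251). Its LCM 800 signals of 204, 521, 518, 3456 and 2054 lie on both sides of the iron range of 1359 to 2119.9. The Hif1a change in LCM 800 passed without LCM 800 replicate 4 (−1.27, adjusted p = 0.0329) and with LCM 800 replicates 4 and 5 left out (−1.83, adjusted p = 0.000357), and was 0.77 (adjusted p = 0.0875) with replicates 1, 2 and 3 left out. Through the shared spread, the LCM 20 change of Hif1a passed with LCM 800 replicates 4 and 5 left out (adjusted p = 0.0230). It also passed with replicates 1, 2 and 3 left out (adjusted p = 0.0179).

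**Figure D5:**
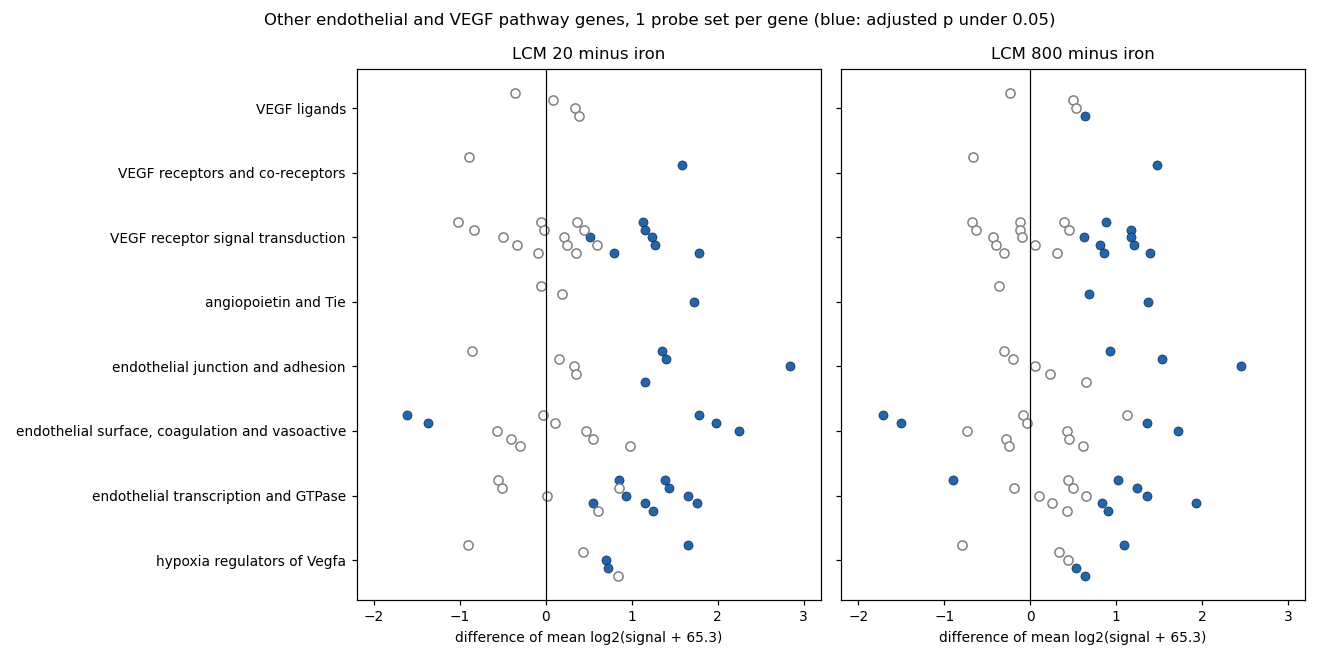
Changes of the 69 tested genes of the wider lists against iron, 1 point per gene, as differences of mean log2(signal + 65.3), LCM 20 on the left and LCM 800 on the right, with 1 row per role. Blue points have an adjusted p under 0.05, and most of them lie right of 0, with Gja5 farthest at 2.85 in LCM 20.

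Likeness of pattern was measured as the root mean square difference between 2 genes' log2 values over the 13 samples, each centred on its own mean, for 1 probe set per gene. All 13 values of a gene share the arrays and their depth of labelling, so this is a description. The genes nearest to Kdr were Hopx at 0.24, Fut4 at 0.25 and Stk3 at 0.27, beside a median of 0.98 over 8042 genes. Among the members Emcn was nearest to Kdr at 0.56, followed by Egfl7 at 0.75 and Icam2 at 0.76, while Vegfa lay at 1.5, Vwf at 1.57 and Plvap at 1.92. The genes nearest to Vegfa 1373807_at were Plpp3 at 0.26, Eftud2 at 0.27 and Smarcc2 at 0.27, beside a median of 0.87, and its nearest member was Vwf at 0.69.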

How the data were processed

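Signals were the authors' deposited array intensities, produced by MAS5 (credited per the submitters' processing notes), on a linear scale with a trimmed mean (2% at each end) of about 500.1 per array. Of the 15923 probe sets, 12783 had 1 gene symbol in the platform annotation, 312 several and 2771 none, and genes were named only from the first kind. From these intensities, log2(signal + 65.29) was computed, where 65.29 is the 20th percentile of all signals, 57 control probe sets and the lowest 30% by mean were left out, and the remaining 11106 were fitted in R 4.3.3 with limma 3.58.1 (lmFit, then eBayes with its trend option), all 3 groups sharing 1 model, with Benjamini-Hochberg adjustment at 0.05. The steps were tested on simulated data.

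Members and gene lists were chosen with earlier results of these data known. Named beyond the members were the 2 largest changes past the test per role list and comparison, plus Flt1, Nrp1, Tek, Tie1, Cdh5, Nos3, Vegfb and Hif1a where measured, each through its brightest probe set. Promoters came from RefSeq (GRCr8). The replicate numbers of different groups showed no clear pairing of the samples: deviations from the group means correlated at −0.24 to 0.23 between same-numbered samples. Replicate 1 was positive in each comparison (0.167, 0.233 and 0.145). With so few arrays per group, some of which stood apart, this check cannot exclude that samples share a rat. Alternatives changed the normalization, the pseudocount, the filter, the variance model, the replicate block and the samples in the fit.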

Additional observations from a re-analysis of the deposited data

Results flagged for a closer look

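Of 105 groups of 4 or 5 samples examined for the member and named pathway probe sets, 14 held 1 sample set off by Dixon's criterion. The nominal rate is about 1 in 20 for independent groups, but these groups share arrays. The criterion was not applied to all probe sets. Iron replicate 3 was the highest iron array for 36.3% and the lowest for 39.7% of all probe sets tested. In iron, replicate 3 was the sample set off for Egfl7 1370402_at (1101, others 448 to 458), Pecam1 (387, others 232 to 238), Tie1 (894, others 461 to 498), S1pr1 (1769.5, others 338 to 401), Tal1 (410.0, others 148 to 167), Egln3 (251, others 168 to 179) and Hif1a (2119.9, others 1359 to 1415), each time as the highest. Replicate 4 was the highest iron array for Plcg1 (1747, others 950.4 to 1051).

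In LCM 20, replicate 4 stood above the others for Plvap (715, others 100.2 to 139) and for Icam2 1389235_at (2819, others 1561 to 1677). Replicate 2 stood above the others for Icam2 1390310_at (489, others 334 to 354) and S1pr1 (4264, others 2465 to 2661) and below them for Vegfa 1370081_a_at (56.7, others 230.0 to 252). Replicate 1 stood below the others for Gja4 (839, others 1149 to 1177). None of the LCM 800 groups was set off in this way, and no difference between LCM 20 and LCM 800 passed the test for the 34 probe sets examined.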

How the results depend on the processing

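Results were recomputed under 25 alternatives, or 24 for the dim probe sets that a filter on the lowest 60% removes (Vwf, Pecam1, Vegfa 1370081_a_at, Icam2 1390310_at, Flt1, Vegfb, Vegfc and Egln3). Kdr, both Egfl7 probe sets, Rasip1 and both Vegfa probe sets kept their call and direction against iron under every alternative run in both comparisons, as did Emcn and Plvap in LCM 20 and Vwf in LCM 800. The members called numbered 8 to 12 in LCM 20 and 5 to 12 in LCM 800. The stricter filter left 9 members, of which 8 and 5 were called, beside 51.3% and 55.2% of all probe sets. In LCM 20, 8 of 13 were also called without iron replicate 1, iron replicate 2 or LCM 20 replicate 4, beside 37.1%, 37.1% and 44.7%. Array weights gave 12 and 12 of 13, beside 57.8% and 66.7%. With the replicate number as a replicate block they were 10 in LCM 20 and 9 in LCM 800, beside 43.9% and 49.1%, and 0 between the LCM groups. Only LCM 800 has a replicate 5, so the block takes that array out of the comparisons. The block's LCM 800 changes of Emcn, Icam2 1389235_at and S1pr1 thus equal those without LCM 800 replicate 5 and are no separate check. Under the block Emcn at 0.88 (adjusted p = 0.0372) and Icam2 1389235_at at 1.22 (adjusted p = 0.0172) passed in LCM 800, while Egln3 in LCM 20 (adjusted p = 0.0509) and Egln3 (0.0645), S1pr1 (0.107) and Vegfc (0.0652) in LCM 800 no longer did. Egln2 in LCM 20 passed (adjusted p = 0.0492), and the block changed no other call among the members and named genes. With equal array medians the LCM 800 calls of Klf2 (adjusted p = 0.0508), Rac1 (0.0668), Tie1 (0.071), S1pr1 (0.0822), Egln3 (0.0579) and Vegfc (0.0536) were lost. The wider list then had 20 calls in LCM 800 (29%), beside 49.9% of all probe sets. Quantile normalization lost the LCM 800 calls of S1pr1 (adjusted p = 0.0505), Egln3 (0.0671) and Vegfc (0.0509).

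Over all probe sets, leaving out the lowest 60% gave 3259 calls in LCM 20 and 3504 in LCM 800 against iron, since fewer probe sets were tested. Between LCM 20 and LCM 800 the count was 10 with no pseudocount, 10 with no filter, 859 with array weights, 0 with the replicate block, 0 with only these 2 groups fitted, 0 to 504 leaving out 1 sample at a time (504 without LCM 800 replicate 4 and 210 without replicate 5) and 2594 without both. In that last fit 4 of the 13 members and 18 wider genes passed, beside 2594 of the 11106 probe sets. The wider list had 44 calls in LCM 20 with array weights (63.8%), beside 57.8% of all probe sets. In LCM 800 it had 19 to 34 leaving out 1 sample at a time. The 19 without iron replicate 2 are 27.5%, beside 44.4%, and the 34 without iron replicate 3 are 49.3%, beside 49.3%. Between the LCM groups it had 4 with array weights (5.8%, beside 7.73%) and 0 to 2 leaving out 1 sample. The 2 came without LCM 800 replicate 4 (2.9%, beside 4.54%). The cause was not tested.

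Values that changed sign passed the test neither before nor after. Between LCM 20 and LCM 800, without LCM 800 replicates 1, 2 and 3, these were Egfl7 1370402_at at 0.23, Egfl7 1393427_s_at at 0.15, Rasip1 at 0.24, Pecam1 at 0.67, Plvap at 0.34 and Vegfa 1370081_a_at at 0.37. Egfl7 1393427_s_at was 0.0057 with equal array medians and −0.22 to 0.048 leaving out 1 sample at a time, Vegfa 1370081_a_at −0.38 to 0.17 and Pecam1 −0.49 to 0.00084 likewise, and Icam2 1389235_at −0.038 and Cldn5 −0.064 without LCM 800 replicates 4 and 5. Against iron, Pecam1 was −0.077 to 0.24 in LCM 20 leaving out 1 sample at a time. In LCM 800 without replicates 1, 2 and 3, Pecam1 was −0.58, Cldn5 −0.57 and Hif1a 0.77, and without replicates 4 and 5 Tfpi was −0.31 and Epas1 −0.0096.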
